A study of Mus musculus with 27 samples.

Results

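Resident alveolar macrophages on day 12 after lung injury were compared with the same population on day 6, which sets late recovery against its middle. The comparison used 6 of the 27 samples of the series, 3 for each day, and 13599 of the 38124 counted genes passed a filter on low counts. Polyadenylated RNA was sequenced from cells washed out of the lungs of C57B/6 mice, 8 to 14 weeks old, and sorted as CD11c+CD11b-. All mice of both days had received 20 ng of lipopolysaccharide (LPS), a bacterial cell wall component, in 50 µL of saline into the trachea, with the mass unit given as the labels have it. Samples of 2 further kinds are compared with them: recruited macrophages (CD11c-CD11b+) of days 12 and 6, given the same LPS, and untreated resident cells (day 0), each with n = 3 per group. Resident and recruited cells of days 3 and 9 after the same LPS, also n = 3 per group, enter the fit that estimates the spread. Resident values of days 3 and 9 are shown in places. No mutation or transgene is named for any group. The labels do not say whether the 3 samples of a group are separate animals or pools, so p-values measure only the spread between these samples.

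Resident alveolar macrophages live in the air spaces, where they clear surfactant and debris, and depend on the nuclear receptor Pparg and on growth factor signals from the epithelium. They renew themselves by division within the lung and divide more after injury has emptied the niche. LPS triggers chemokines, interferons and the genes that interferons induce, which fade as injury resolves.

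The 6 samples had 13247918 to 17625541 counts and 16293 to 17027 genes with a count. Identity genes were abundant in all of them: resident markers other than the very abundant Chil3 summed to 27300 to 28400 CPM, counts scaled to a common library size, on day 12, against 25700 to 26400 CPM on day 6. Chil3 itself, with values given below, was lower on day 12 by more CPM than that. With Chil3 in the sum, day 12 would therefore be the lower day. Samples of the same day were not uniformly alike. Day 12 replicate 1 differed more from day 12 replicates 2 and 3 (SD of log2 differences across genes 0.555 and 0.556) than these did from each other (0.413), and its closest sample was day 6 replicate 3 (0.507). It held 10500 CPM of 27 genes of monocyte-derived macrophages, against 4140 and 4660 CPM in the other day 12 samples and 4550 to 6360 CPM on day 6. The secreted phosphoprotein gene Spp1 alone had 3970 CPM there, against 402 and 460 CPM in the other day 12 samples and 449 to 660 CPM on day 6. In mean log2 CPM of the 27 genes, day 12 replicate 1 stood less apart. The means were 4.32, 3.16 and 3.17 on day 12, against 4.25, 3.27 and 4.15 on day 6. Day 6 replicate 1 stood apart for interferon-stimulated genes, as given below. Numbers in the deposited column names fall into 4 runs, of which 2 hold 1 day 12 and 1 day 6 resident sample each (the replicates numbered 2 and those numbered 3), while replicate 1 of each day has no partner. With day 12 replicate 1 left out, counts of genes without overlap are read against 19.7% higher and 17.5% lower over all genes tested, and with day 6 replicate 1 left out against 15.5% and 14.1%. In bulk samples, fewer cells of a type and less RNA per cell cannot be told apart.

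Few genes separated the days past the threshold. With edgeR's quasi-likelihood test and Benjamini-Hochberg adjustment over all genes, 6 of 13599 had an adjusted p under 0.05 (0.0441%), of which 4 were higher and 2 lower on day 12. Without adjustment, 493 genes (3.63%) were higher and 568 (4.18%) lower at p under 0.05. DESeq2 called 29 higher (0.213%) and 63 lower (0.463%). The 3 day 12 samples lay above the 3 day 6 samples in 1470 genes (10.8%) and below them in 1280 (9.41%). Counts of list members given below are read against these shares. The median absolute log2 difference over all genes was 0.16, beside a median standard error of 0.19. For a single gene, an exact permutation test of 3 samples against 3 cannot go below p = 0.1. The spread in the main test is shared by all 9 groups. With the 6 samples alone, 34 genes passed, none of them among these 6. With day 6 replicate 3 left out no gene passed in edgeR, with day 12 replicate 2 or replicate 3 left out 1 did, and with day 6 replicate 1 left out 3 did.

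Among the genes that passed, Ccl9 is the one that the naming rule reached, and the other names were chosen after their values were seen. Fcho1 (chromosome 8, 71708387 to 71725716, GRCm38) encodes an adaptor that starts clathrin-coated pits. It had 7.58, 8.61 and 9.01 CPM on day 12, against 4.38, 2.74 and 2.45 CPM on day 6. The days did not overlap, and the log2 change was 1.4 ± 0.19 (SE, n = 3 each, edgeR adjusted p = 0.00325), though adjusted p was 0.0787 without day 6 replicate 3. Spred2 (chromosome 11, 19924375 to 20024026), an inhibitor of Ras signalling to the ERK kinases, had 7.13, 8.68 and 10.2 CPM on day 12, against 2.92, 5.09 and 2.64 CPM on day 6. It rose by 1.29 ± 0.21 log2 (SE, edgeR adjusted p = 0.0236). Its adjusted p was 0.0885 to 0.12 when day 12 replicate 2 or 3, or day 6 replicate 1 or 3, was left out. Untreated cells had 10.6, 11 and 12.1 CPM, so for Spred2 the low values were those of day 6.

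The other 2 higher genes were scarce. Gypc (chromosome 18, 32528322 to 32560034), a membrane protein that anchors the cell skeleton, had 1.66, 1.62 and 2.24 CPM on day 12, against 0.626, 0.261 and 0.322 CPM on day 6. The change of 2.19 ± 0.40 log2 (SE) was at the edge of the threshold (edgeR adjusted p = 0.0497) and missed it whichever of the 6 samples was left out (0.0773 to 0.186). No untreated sample had a count of Gypc. Pxylp1 (chromosome 9, 96823336 to 96892669), a phosphatase of glycosaminoglycan synthesis, had 0.509, 0.736 and 0.671 CPM on day 12, against 0, 0 and 0.0645 CPM on day 6. That is 30 counts against 1, a ratio of 28.8 with a 95% counting interval of 4.78 to 1170 (edgeR adjusted p = 0.0394). Its adjusted p was 0.0885 to 0.176 when any sample other than day 12 replicate 1 was left out.

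Ccl9 and Gm5424 were the genes that fell. Ccl9 (chromosome 11, 83572919 to 83578636) is a chemokine that draws myeloid cells. It had 50, 26 and 33.2 CPM on day 12, against 127, 97 and 117 CPM on day 6, and the days lay far apart. Its log2 change was -1.64 ± 0.29 (SE, edgeR adjusted p = 0.0394). Adjusted p was 0.0507 to 0.298 when any sample other than day 12 replicate 1 was left out. Gm5424 (chromosome 10, 62071123 to 62072362), a processed pseudogene that copies the arginine synthesis gene Ass1, had 1.72, 1.18 and 0.783 CPM on day 12, against 5.01, 2.41 and 3.74 CPM on day 6. It fell by 1.60 log2 (SE 0.28, edgeR adjusted p = 0.0394), and its adjusted p was 0.0885 to 0.193 without day 12 replicate 2 or 3, or day 6 replicate 1 or 3. Ass1 itself had 6.88, 8.02 and 6.55 CPM on day 12, against 26.6, 11.3 and 17.5 CPM on day 6 (-1.37 ± 0.29 log2, edgeR adjusted p = 0.0808). Reads of the pair may be shared, so their values are uncertain. Within the 2 runs that hold a pair, log2 differences were 1.61 and 1.82 for Fcho1, 0.76 and 1.9 for Spred2, 2.15 and 2.37 for Gypc, and 2.68 and 2.01 for Pxylp1. They were -1.89 and -1.81 for Ccl9, and -0.96 and -2.08 for Gm5424, with signs that follow from the lack of overlap.

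**Figure D1:**
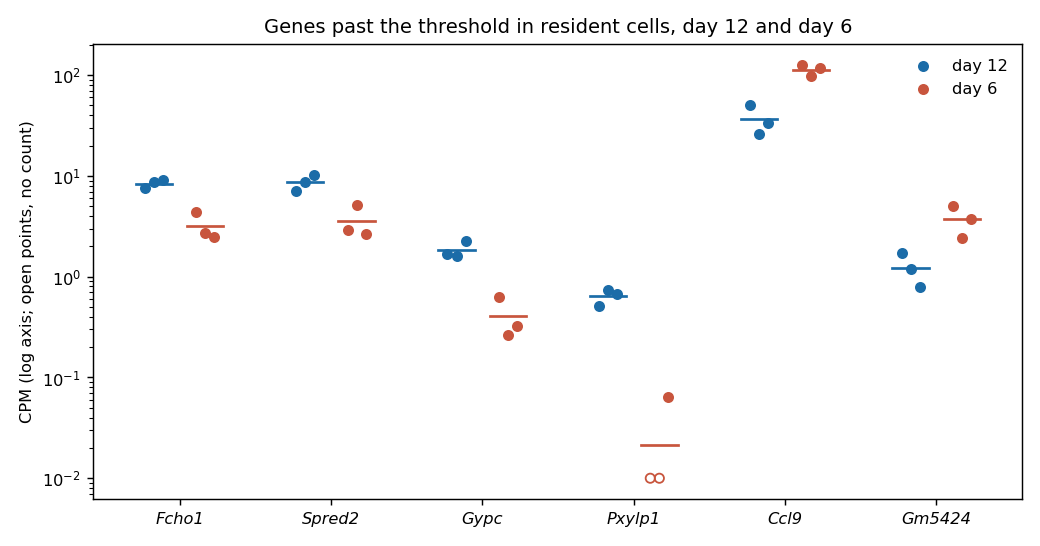
CPM (log axis) of the 6 genes past the threshold in each resident sample, day 12 to the left of day 6, where bars are means of 3 samples and open points at the foot are samples with no count. Samples of the 2 days do not overlap in any of the 6 genes, and Pxylp1 and Gypc stay under 3 CPM throughout.

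Genes of DNA replication lay above their day 6 values on day 12 as a group, but no single gene passed. None of 47 tested passed (0.0441% of all genes did). At an unadjusted p under 0.05, 18 were higher (3.63% of all genes), and DESeq2 called 2, both higher (0.213% of all genes). The 3 day 12 samples lay above the 3 day 6 samples in 31 of 47, against 10.8% of all genes, and below them in none. All 47 log2 differences were above 0, with a median of 0.46 beside 0.006 over all genes. The list's mean log2 CPM was 4.03, 4.13 and 4.01 on day 12, against 3.76, 3.27 and 3.65 on day 6. Day 6 replicate 2 was the lowest: without it the median was 0.30, and without any other sample it was 0.40 to 0.55. Members of a list vary together, so their counts are not independent.

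The replicative helicase gave the clearest members. Mcm2, a subunit of that helicase, had 44.3, 54.7 and 44.1 CPM on day 12, against 26.6, 20.1 and 23.1 CPM on day 6. The days did not overlap, and the log2 difference was 1.03 ± 0.22 (SE, edgeR adjusted p = 0.0766, DESeq2 adjusted p = 0.00364). Mcm3, a partner subunit, had 76.5, 90.5 and 86.1 CPM on day 12, against 62.8, 47.7 and 56.5 CPM on day 6 (0.60 ± 0.15 log2, edgeR adjusted p = 0.159). Mcm4 lay at 58.5 to 62 CPM on day 12, against 41.1 to 44.9 CPM on day 6. Mcm5 had 36.2, 43 and 35.4 CPM on day 12, against 30.1, 17.8 and 25.3 CPM on day 6 (0.65 ± 0.30 log2, edgeR adjusted p = 0.617). Lig1, the ligase that joins new DNA fragments, had 31.1, 35.6 and 34 CPM on day 12, against 21.6, 15.3 and 20.7 CPM on day 6 (0.80 ± 0.22 log2, edgeR adjusted p = 0.198). In each of these 5 genes the lowest sample was day 6 replicate 2.

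Mitosis genes also lay above their day 6 values, with larger errors. None of 55 passed (0.0441% of all genes), DESeq2 called none, and 5 were higher at an unadjusted p under 0.05 (3.63% of all genes). The samples did not overlap in 31 of 55, all with day 12 higher, against 10.8% of all genes. The median log2 difference was 0.60, and it was 0.34 without day 6 replicate 2 and 0.41 without day 12 replicate 1. Kif23, a motor that completes cell separation, had 39, 44.8 and 48 CPM on day 12, against 30.1, 20.5 and 28.4 CPM on day 6 (0.74 ± 0.31 log2, edgeR adjusted p = 0.575). Incenp, a scaffold of the kinase that guards chromosome attachment, lay at 63 to 67.8 CPM on day 12, against 49 to 53.4 CPM on day 6. Stmn1, which loosens microtubules, lay at 16.2 to 19.4 CPM on day 12, against 7.37 to 12.4 CPM on day 6. Mki67, the common proliferation marker, had 169, 143 and 131 CPM on day 12, against 120, 77.7 and 114 CPM on day 6 (0.50 ± 0.39 log2, edgeR adjusted p = 0.82). Top2a, which untangles chromosomes, had 103, 82.2 and 74.1 CPM on day 12, against 66.9, 37.2 and 58.6 CPM on day 6 (0.67 ± 0.57 log2, edgeR adjusted p = 0.834). For Mki67 and Top2a the days did not overlap, but the standard errors were close to the differences.

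Promoters of both lists carried motifs known from cell cycle genes more often than promoters at large. RefSeq windows (GRCm38.p6, 250 bases before to 50 after a start, the first window of each gene) were found for 9894 tested genes, 38 of the 47 replication genes and 43 of the 55 mitosis genes. TTTNNCGC, a core of E2F sites, was present on either strand in 16 of 38 replication genes (42.1%), against 8.52% of all windows. TTTGAA, the core of the cell cycle homology region, was present in 32 of 43 mitosis genes (74.4%), against 12% of all windows. A match is a string of letters and not a site shown to be used. Genes outside the lists did not stand apart by motif: the median log2 difference was 0.026 for 827 genes with TTTNNCGC and 0.012 for 9029 without it. Within the replication list, 62.5% of members with the motif and 77.3% of those without it were higher without overlap. The 250 bases before the start of Mcm2, Mcm3, Lig1 and Kif23 hold no match to the motif of their list. For these single genes the 50 bases after the start were not looked at. Mcm5 and Top2a are shown as examples of promoters with matches, chosen for having them, as the 250 bases before the start, 5′ to 3′ on the gene's strand, with the matches in capitals. In Mcm5 (chr8:75109259-75109508, plus strand) a match on each strand overlaps the other, and in Top2a (chr11:99024190-99024439, minus strand) there are 2 separate matches.
Mcm5: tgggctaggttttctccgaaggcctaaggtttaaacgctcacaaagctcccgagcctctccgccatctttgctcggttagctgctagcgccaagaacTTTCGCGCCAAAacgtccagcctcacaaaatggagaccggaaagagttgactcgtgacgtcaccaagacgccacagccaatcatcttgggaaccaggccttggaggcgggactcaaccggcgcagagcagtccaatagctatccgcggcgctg
Top2a: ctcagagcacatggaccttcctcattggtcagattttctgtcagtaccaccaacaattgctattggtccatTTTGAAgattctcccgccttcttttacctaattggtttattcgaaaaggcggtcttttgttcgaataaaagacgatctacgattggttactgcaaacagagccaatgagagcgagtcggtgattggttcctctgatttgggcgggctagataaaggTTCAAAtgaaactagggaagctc

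**Figure D2:**
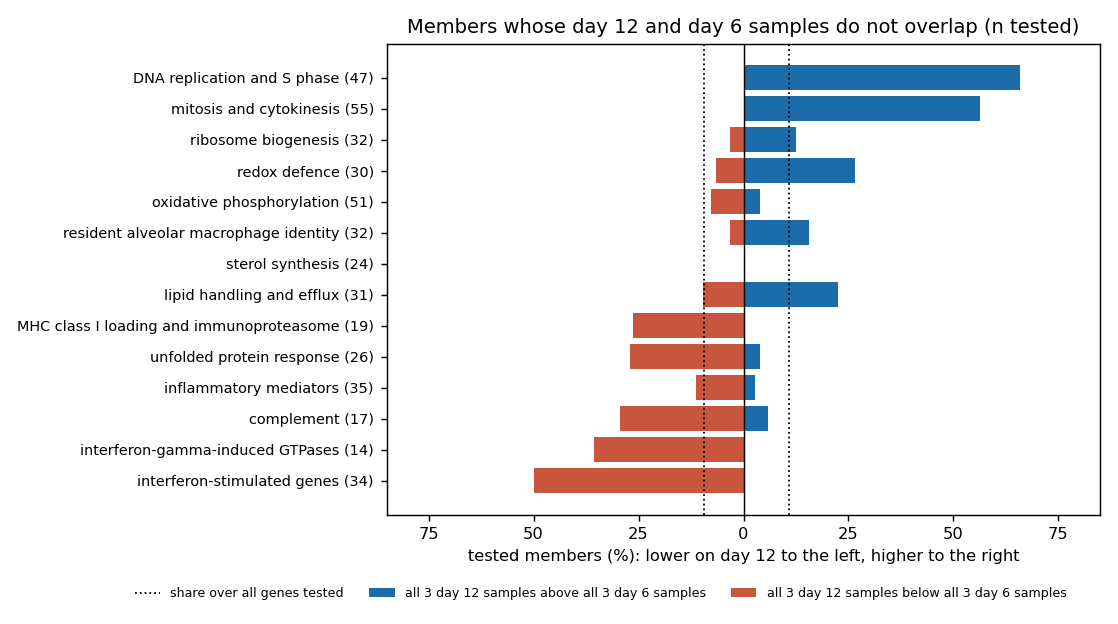
Share of the tested members of 14 gene lists (n in brackets) whose 3 day 12 samples all lie above (right) or all below (left) the 3 day 6 samples, with dotted lines for the shares of all genes tested, 10.8% and 9.41%. Replication and mitosis genes reach 66% and 56.4% on the right, interferon-stimulated genes 50% on the left, and sterol synthesis genes 0% on either side.

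Interferon-stimulated antiviral genes lay below their day 6 values on day 12, most of all against day 6 replicate 1. None of 34 passed (0.0441% of all genes did). At an unadjusted p under 0.05, 19 were lower (4.18% of all genes), and DESeq2 called 8, all lower (0.463% of all genes). The days did not overlap in 17 of 34, all with day 12 lower, against 9.41% of all genes. All 34 log2 differences were below 0, with a median of -0.84. The list's mean log2 CPM was 3.05, 3.13 and 2.95 on day 12, against 4.84, 3.14 and 3.49 on day 6. Without day 6 replicate 1, the high sample, the median was -0.21, and 17 of 34 lay below without overlap, beside 14.1% of all genes, while 3 lay above, beside 15.5%.

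Irf7, the transcription factor that amplifies interferon production, had 8.21, 8.17 and 8.28 CPM on day 12, against 105, 15.1 and 26 CPM on day 6. All 3 day 6 samples were higher, though over a wide range, and the log2 difference was -2.57 ± 0.61 (SE, edgeR adjusted p = 0.159, DESeq2 adjusted p = 0.0061). Oas2, a sensor of double-stranded RNA, had 14.7, 7.58 and 5.6 CPM on day 12, against 80.2, 22.9 and 23.5 CPM on day 6 (-2.18 ± 0.47 log2, edgeR adjusted p = 0.0828). Oas3, of the same family, had 10.6, 8.46 and 7.44 CPM on day 12, against 90.8, 15.5 and 24.4 CPM on day 6 (-2.30 ± 0.53 log2, edgeR adjusted p = 0.144). Ifi27l2a, a small interferon-induced membrane protein, had 12.2, 6.33 and 4.14 CPM on day 12, against 73.8, 12.6 and 21.3 CPM on day 6 (-2.25 ± 0.54 log2, edgeR adjusted p = 0.159). Within the runs that hold a pair, their log2 differences were -2.32 to -0.86, with signs that follow from the lack of overlap.

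Not all members did so. Isg15, a ubiquitin-like modifier, had 4.33, 4.19 and 3.3 CPM on day 12, against 13.2, 2.28 and 5.16 CPM on day 6 (-0.80 ± 0.52 log2, edgeR adjusted p = 0.76). Ifit3, an antiviral effector, had 2.87, 5.22 and 3.86 CPM on day 12, against 14.2, 2.22 and 4.58 CPM on day 6 (-0.81 ± 0.49 log2, edgeR adjusted p = 0.732). In both the days overlapped, and without day 6 replicate 1 the sign turned, to 0.071 for Isg15 and 0.21 for Ifit3.

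A pair of GAAA runs with 2 bases of any kind between them, the core of the interferon-stimulated response element, lay in 14 of the 23 members with a promoter window (60.9%), on either strand, against 3.23% of all 9894 windows. Members with it had a median log2 difference of -0.73 (n = 14) and members without it -1.04 (n = 9). The other 306 genes with the motif had a median of -0.049, beside 0.016 for 9565 genes without it. Promoters of 2 members that behaved differently are shown, 250 bases before the start, 5′ to 3′ on the gene's strand, with matches in capitals. Oas3 (chr5:120777660-120777909, minus strand) holds 1 match, and Isg15 (chr4:156200819-156201068, minus strand) holds 3 that overlap.
Oas3: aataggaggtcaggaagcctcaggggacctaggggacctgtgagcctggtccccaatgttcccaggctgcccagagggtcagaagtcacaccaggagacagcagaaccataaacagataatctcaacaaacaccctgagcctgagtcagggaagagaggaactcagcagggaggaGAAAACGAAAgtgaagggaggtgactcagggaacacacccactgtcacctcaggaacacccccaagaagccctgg
Isg15: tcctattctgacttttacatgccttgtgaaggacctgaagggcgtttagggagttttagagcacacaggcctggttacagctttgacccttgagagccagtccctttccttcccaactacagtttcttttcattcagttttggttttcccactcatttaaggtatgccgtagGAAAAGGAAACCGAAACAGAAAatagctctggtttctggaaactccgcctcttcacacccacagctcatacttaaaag

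Genes that interferon gamma induces and genes of MHC class I presentation lay lower too, again without passing. Of 14 immunity GTPases, none passed and DESeq2 called 1 lower, 5 were lower without overlap (9.41% of all genes), and the median log2 difference was -0.49, or -0.17 without day 6 replicate 1. Irgm2, which acts on vacuoles that hold microbes, had 15.9, 16.6 and 14.4 CPM on day 12, against 34.3, 20 and 23.2 CPM on day 6 (-0.72 ± 0.19 log2, edgeR adjusted p = 0.168). Of 19 class I genes, none passed, 6 were lower at an unadjusted p under 0.05 (4.18% of all genes), and DESeq2 called 3 lower (0.463%). Their days did not overlap in 5, all lower (9.41% of all genes), and the median was -0.15, or -0.042 without day 6 replicate 1.

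H2-M3, which presents bacterial peptides, had 35.2, 29.6 and 27.9 CPM on day 12, against 56.8, 41.2 and 42.7 CPM on day 6 (-0.60 ± 0.12 log2, edgeR adjusted p = 0.0606). Tap1, a subunit of the peptide pump of the endoplasmic reticulum, had 73.3, 73.3 and 69.7 CPM on day 12, against 157, 97.3 and 95.7 CPM on day 6 (-0.69 ± 0.17 log2, edgeR adjusted p = 0.154). H2-K1, a classical class I chain whose reads may be shared with its relatives, had 1520, 1200 and 1170 CPM on day 12, against 2620, 1720 and 1780 CPM on day 6 (-0.65 ± 0.17 log2, edgeR adjusted p = 0.159). B2m, the light chain they share, lay at 1360 to 1670 CPM on day 12, against 1870 to 2770 CPM on day 6. In all 4 genes the days did not overlap, and day 6 replicate 1 was the highest sample. The 17 class II and costimulation genes had no member apart in either direction, and 3 higher without day 6 replicate 1 (17.6%, beside 15.5% of all genes). H2-Aa, a class II chain, had 632, 326 and 402 CPM on day 12, against 478, 281 and 497 CPM on day 6 (0.11 ± 0.40 log2, edgeR adjusted p = 0.978), and its sign turned without day 12 replicate 1 or day 6 replicate 2.

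**Figure D3:**
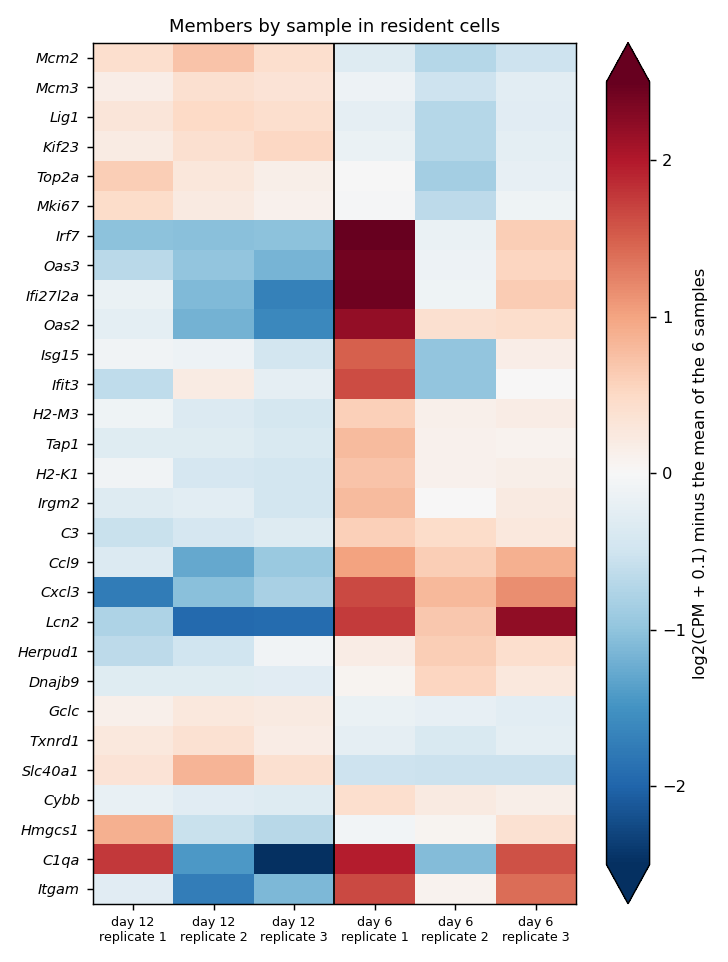
Each cell is log2(CPM + 0.1) of 1 of 29 genes in 1 resident sample, minus the gene's mean over the 6 samples, with red above and blue below that mean and day 12 to the left of day 6. Replication genes are red on day 12, interferon genes are darkest red in day 6 replicate 1, and Hmgcs1 is reddest in day 12 replicate 1.

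Complement genes lay mostly below their day 6 values on day 12. Of 17 complement genes, none passed, DESeq2 called 2 lower, 5 were lower without overlap (9.41% of all genes) and 1 was higher (10.8%). C3, the central complement protein, had 707, 774 and 829 CPM on day 12, against 1580, 1430 and 1250 CPM on day 6. The days lay well apart, with little spread within each, and the log2 difference was -0.88 ± 0.18 (SE, edgeR adjusted p = 0.0606, DESeq2 adjusted p = 0.00107). Cfb, which builds the alternative pathway convertase with C3, had 63.7, 36.3 and 34.6 CPM on day 12, against 105, 72.8 and 77.4 CPM on day 6 (-0.92 ± 0.46 log2, edgeR adjusted p = 0.637). C1qa, a chain of the recognition protein C1q, had 7.64, 0.736 and 0.224 CPM on day 12, against 8.77, 0.978 and 6.77 CPM on day 6, and the days overlapped. The list's median log2 difference was -0.42, and it was -0.12 without day 6 replicate 1. Without day 12 replicate 1 the median was -1.93, and 11 were lower without overlap (64.7%, beside 17.5% of all genes).

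Among 35 inflammatory mediators, Ccl9 passed, DESeq2 called 3 lower, 4 were lower (11.4%, beside 9.41% of all genes) and 1 higher (2.86%, beside 10.8%) without overlap, and the median log2 difference was -0.10. Without day 12 replicate 1, 9 were lower and 3 higher (25.7% and 8.57%, beside 17.5% and 19.7% of all genes). Cxcl3, a neutrophil attractant, had 2.16, 3.61 and 4.25 CPM on day 12, against 23.7, 13.3 and 16.9 CPM on day 6 (-2.42 ± 0.55 log2, edgeR adjusted p = 0.128, DESeq2 adjusted p = 0.0061). Lcn2, which takes iron carriers from bacteria, had 4.07, 1.77 and 1.79 CPM on day 12, against 24.1, 11.3 and 33 CPM on day 6 (-3.16 ± 0.80 log2, edgeR adjusted p = 0.168). Its mean on day 3 was 1120 CPM, far above both days. Lcn2 is also among the neutrophil markers below, and its highest sample, day 6 replicate 3, held most of the S100a9 counts. The part of neutrophils in the Lcn2 values was not tested. Il1b, a fever-inducing cytokine, had 101, 36.2 and 33.3 CPM on day 12, against 70.6, 58 and 177 CPM on day 6, and the days overlapped. Tnf had 5.79, 12.7 and 19.1 CPM on day 12, against 10.8, 12.3 and 10.5 CPM on day 6, and the monocyte attractant Ccl2 stayed under 1 CPM in every sample of both days. Nos2, the inducible nitric oxide synthase, likewise stayed under 1 CPM, and Arg1, which competes for its substrate, had 11.4, 0.809 and 1.06 CPM on day 12, against 2.92, 1.24 and 7.93 CPM on day 6.

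Genes of protein folding stress lay somewhat below their day 6 values on day 12. Of 26 genes of the unfolded protein response none passed, 9 were lower and 1 higher at an unadjusted p under 0.05, against 4.18% and 3.63% of all genes, and DESeq2 called 1, the higher one. The days did not overlap in 7 lower (9.41% of all genes) and 1 higher (10.8%). With day 6 replicate 1 left out these were 13 lower and 3 higher (50% and 11.5%, beside 14.1% and 15.5% of all genes). Herpud1, which helps to dispose of misfolded proteins, had 87.5, 96.8 and 130 CPM on day 12, against 157, 212 and 185 CPM on day 6 (-0.82 ± 0.26 log2, edgeR adjusted p = 0.302). Dnajb9, a cofactor of the chaperone BiP, had 66, 66.1 and 67.1 CPM on day 12, against 85.8, 118 and 97.5 CPM on day 6 (-0.60 ± 0.19 log2, edgeR adjusted p = 0.312). Manf and Creld2, both secreted under folding stress, had ranges of 71.3 to 91.4 and 34 to 47.9 CPM on day 12, against 97.4 to 127 and 50.9 to 58.4 CPM on day 6. Ddit3, the transcription factor of its death arm, lay at 11.8 to 16.9 CPM on day 12, against 22.8 to 28.4 CPM on day 6. Sesn2, induced by lack of amino acids, was the higher one, with 53.7, 48.3 and 53.1 CPM on day 12, against 31.4, 33.5 and 40.5 CPM on day 6 (0.56 ± 0.13 log2, edgeR adjusted p = 0.103, DESeq2 adjusted p = 0.00906). The list's median was -0.08, so most members differed little.

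The constitutive chaperone gene Hspa8 had 743, 640 and 790 CPM on day 12, against 1100, 1350 and 1280 CPM on day 6, and untreated cells had 989, 1220 and 1270 CPM. Its day 12 samples were therefore below both other days (-0.78 ± 0.17 log2 against day 6, edgeR adjusted p = 0.0789, and -0.68 log2 against day 0, adjusted p = 0.0415). Of 30 immediate early and heat shock genes none passed, DESeq2 called 1 lower, and 4 were lower without overlap (13.3%, beside 9.41% of all genes). Without day 12 replicate 1, 6 were higher and 4 lower (20% and 13.3%, beside 19.7% and 17.5% of all genes). Of 32 ribosome biogenesis genes 5 were higher and 1 lower at an unadjusted p under 0.05 (3.63% and 4.18% of all genes), DESeq2 called 1 higher, and 28 differences were above 0 (median 0.16). Their days did not overlap in 4 higher and 1 lower (12.5% and 3.12%, beside 10.8% and 9.41% of all genes). With day 12 replicate 1 left out these were 22 higher and 1 lower (68.8% and 3.12%, beside 19.7% and 17.5% of all genes). Gnl3, a nucleolar GTPase of dividing cells, had 23.5, 30.9 and 33.6 CPM on day 12, against 20.1, 20.4 and 19.6 CPM on day 6 (0.55 ± 0.14 log2, edgeR adjusted p = 0.159).

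Redox and iron genes lay on both sides, with more of them higher than lower without overlap. Of 30 redox genes none passed, DESeq2 called 1 lower, 8 were higher without overlap (10.8% of all genes) and 2 lower (9.41%). Without day 12 replicate 1, 10 were higher and 8 lower (33.3% and 26.7%, beside 19.7% and 17.5% of all genes). Gclc, the limiting enzyme of glutathione synthesis, had 49.9, 55 and 53.2 CPM on day 12, against 40.7, 39.5 and 38.2 CPM on day 6 (0.42 ± 0.12 log2, edgeR adjusted p = 0.207). Txnrd1, thioredoxin reductase, had 238, 257 and 226 CPM on day 12, against 170, 152 and 168 CPM on day 6 (0.56 ± 0.22 log2, edgeR adjusted p = 0.512). Srxn1, which restores peroxiredoxins, lay at 74.5 to 88.5 CPM on day 12, against 41.3 to 51.3 CPM on day 6. The oxidant-producing subunit Cybb lay lower, with 2020, 1890 and 1840 CPM on day 12, against 3080, 2700 and 2530 CPM on day 6 (-0.53 ± 0.13 log2, edgeR adjusted p = 0.159, DESeq2 adjusted p = 0.0102). Of 20 iron and haem genes none passed, DESeq2 called 1 lower, and 6 were higher and 1 lower without overlap (30% and 5%, beside 10.8% and 9.41% of all genes). Without day 12 replicate 1, 7 were higher and 6 lower (35% and 30%, beside 19.7% and 17.5% of all genes). Slc40a1, the iron exporter ferroportin, had 20.2, 29.1 and 21.1 CPM on day 12, against 11.2, 11 and 11 CPM on day 6 (1.08 ± 0.44 log2, edgeR adjusted p = 0.542). Hmox1, which breaks down haem, had 359, 576 and 503 CPM on day 12, against 323, 262 and 354 CPM on day 6 (0.61 ± 0.49 log2, edgeR adjusted p = 0.823).

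Identity genes had a median difference near 0. Of 32 none passed and DESeq2 called none, 2 were higher at an unadjusted p under 0.05, and the median log2 difference was 0.044. The list's mean log2 CPM was 9.12 to 9.22 on day 12, against 9.11 to 9.15 on day 6. Siglecf, the sialic acid receptor that marks these cells, had 441, 539 and 582 CPM on day 12, against 473, 529 and 499 CPM on day 6. Pparg had 159, 173 and 186 CPM on day 12, against 167, 224 and 145 CPM on day 6, and the lipid droplet gene Cidec 263, 390 and 428 CPM, against 315, 353 and 316 CPM. The scavenger receptor Marco had 274, 199 and 185 CPM on day 12, against 242, 254 and 377 CPM on day 6, and the carbonic anhydrase Car4 had 1210, 404 and 425 CPM on day 12, against 742, 734 and 965 CPM on day 6. All 5 overlapped between the days.

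Of the list, 5 genes were higher and 1 was lower without overlap, against 10.8% and 9.41% of all genes. Without day 12 replicate 1, 14 were higher and 7 lower (43.8% and 21.9%, beside 19.7% and 17.5% of all genes), with a median of 0.1. Tgfbr2, a receptor for the TGF-beta signal these cells need, had 837, 812 and 772 CPM on day 12, against 598, 677 and 591 CPM on day 6 (0.38 ± 0.14 log2, edgeR adjusted p = 0.431). Bhlhe41, a repressor tied to self-renewal of these cells, had 165, 191 and 140 CPM on day 12, against 117, 115 and 89.4 CPM on day 6 (0.62 ± 0.26 log2, edgeR adjusted p = 0.561). Chil3, a secreted chitinase-like protein, had 15900, 16700 and 17300 CPM on day 12, against 23000, 24100 and 23800 CPM on day 6 (-0.51 ± 0.45 log2, edgeR adjusted p = 0.839). The standard error of Chil3 comes from all 9 groups and is wide beside these values. With the 6 samples alone its adjusted p was 0.0715.

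Sterol genes differed more within day 12 than between the days. None of 24 sterol synthesis genes passed, DESeq2 called none, and none was without overlap or had an unadjusted p under 0.05. The list's mean log2 CPM was 6.64, 5.55 and 5.43 on day 12, against 5.81, 5.89 and 6.33 on day 6. Hmgcs1, an early enzyme of the pathway, had 359, 132 and 120 CPM on day 12, against 184, 203 and 251 CPM on day 6. The list's median log2 difference was -0.05, and it was -0.59 without day 12 replicate 1, where 21 of 24 were lower without overlap (87.5%, beside 17.5% of all genes). That sample also had the highest summed CPM of monocyte-derived macrophage genes. In mean log2 CPM of these genes (4.32), day 6 replicates 1 and 3 were near it (4.25 and 4.15). Day 9 replicate 2, the other resident sample in the run of day 12 replicate 1, had a sterol list mean of 6.97, against 5.39 and 5.3 in the other resident day 9 samples. It was also the highest of them for mitosis (4.11, against 2.59 and 2.82), monocyte-derived macrophage (4.3, against 3.14 and 3.24) and complement genes (5.16, against 3.4 and 3.85). The part of the run in the values of these lists, and of monocyte-derived RNA in the sterol values, was not tested. Of 33 fatty acid oxidation genes, 9 were higher without overlap (27.3%, beside 10.8% of all genes) and 2 lower (6.06%, beside 9.41%). Without day 12 replicate 1, 12 were higher and 5 lower (36.4% and 15.2%, beside 19.7% and 17.5% of all genes). Pdk4, which turns fuel use from glucose to fat, had 29.2, 17.1 and 16.3 CPM on day 12, against 9.11, 9.45 and 10.9 CPM on day 6 (1.09 ± 0.48 log2, edgeR adjusted p = 0.588). Genes of oxidative phosphorylation (51 tested), the citrate cycle (25) and glycolysis (34) had none past the threshold, none called by DESeq2, and medians of -0.039, 0.014 and 0.013.

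Markers of other cells moved with some of these groups. Itgam encodes CD11b, on which the sort was negative, and had 16.8, 6.03 and 9.34 CPM on day 12, against 64.4, 21.5 and 53.4 CPM on day 6 (-2.11 ± 0.53 log2, edgeR adjusted p = 0.168). Itgax, encoding CD11c of the positive gate, had 2320, 2190 and 2310 CPM on day 12, against 2090, 2160 and 2130 CPM on day 6. Of 21 classical monocyte markers in the file 1 was at 0 on day 12 and none on day 6, and those other than Chil3 summed to 10800, 5030 and 5630 CPM on day 12, against 8850, 9060 and 8930 CPM on day 6. By this sum, day 12 replicate 1 was the highest of the 6 samples and the other day 12 samples were the lowest. The mean log2 CPM of the 21 markers was 3.68, 2.91 and 2.91 on day 12, against 3.88, 3.1 and 3.92 on day 6. Of the 21, 6 were lower and 1 higher without overlap (28.6% and 4.76%, beside 9.41% and 10.8% of all genes). Without day 12 replicate 1, 11 were lower and 2 higher (52.4% and 9.52%, beside 17.5% and 19.7% of all genes). Of the 27 monocyte-derived macrophage genes, 4 were lower (14.8%, beside 9.41% of all genes) and none higher (beside 10.8%). Without that sample 14 were lower and 1 higher (51.9% and 3.7%, beside 17.5% and 19.7% of all genes). Ly6c2, which shares reads with its paralog, had 0.891, 0.147 and 0.112 CPM on day 12, against 3.13, 1.37 and 4.64 CPM on day 6 (-2.97 ± 0.95 log2, edgeR adjusted p = 0.322). Ccr2, the receptor that lets monocytes leave the marrow, had 26.5, 17.3 and 18.5 CPM on day 12, against 36.2, 21.3 and 30.3 CPM on day 6, and Apoe had 185, 54.2 and 76.7 CPM on day 12, against 216, 64.2 and 123 CPM on day 6. Csf1r, a growth factor receptor of macrophages, had 739, 591 and 695 CPM on day 12, against 907, 967 and 857 CPM on day 6 (-0.43 ± 0.12 log2, edgeR adjusted p = 0.212). DESeq2 called 2 of the 21 classical monocyte markers, 1 of the 27 monocyte-derived macrophage genes and 1 of the 2 sort marker genes. All were lower (0.463% of all genes), and edgeR called none of these lists. The part of other cells in the results above was not tested.

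Defining genes of lymphocytes and neutrophils were scarce. Of 20 T and NK cell markers 2 were at 0 on day 12 and 1 on day 6, and the sum was 230 to 245 CPM on day 12, against 200 to 236 CPM on day 6. The list includes Cd2, which is also among the resident identity genes, so the sum is not lymphocyte RNA alone. Of 17 tested members 14 had a log2 difference below 0 and 3 above. Mean log2 CPM was -1.08, -0.97 and -1.04 on day 12, against 0.51, -0.78 and -0.93 on day 6. Defining T cell genes were near 0: Trbc2 had 0.127, 0 and 0.112 CPM on day 12, against 1.11, 0.717 and 0.322 CPM on day 6, and Cd8a 0.0637, 0.294 and 0.168 CPM, against 2.16, 0.326 and 0.774 CPM. The highest Trbc2 and Cd8a values were in day 6 replicate 1, the sample with the most interferon-stimulated RNA, and the part of T cells in those values was not tested. Of 18 neutrophil markers 9 were at 0 on day 12 and 5 on day 6, and the sum was 197 to 243 CPM on day 12, against 200 to 279 CPM on day 6. Of the 15 tested none passed in edgeR, and DESeq2 called 2, both lower (0.463% of all genes). S100a9, an abundant neutrophil protein, had 0 counts on day 12, against 96 on day 6, at least 33.4-fold lower when day 12 is set at 3 counts over the group. On day 6 it had 0.835, 0.13 and 5.29 CPM, so replicate 3 held most of them. Sums of B cell markers (0.616 to 1.78 CPM on day 12, against 0.322 to 1.46 CPM on day 6) and red cell markers (0.294 to 1.79 CPM, against 0.696 to 1.43 CPM) were near 0, and epithelial markers summed to 143 to 150 CPM, against 118 to 138 CPM.

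Set beside untreated cells, day 6 was the farther of the 2 days by number of calls. On day 12, 149 genes were higher (1.1%) and 28 lower (0.206%) than on day 0, and on day 6, 513 were higher (3.77%) and 360 lower (2.65%), by edgeR's adjusted threshold. The comparisons share the day 0 samples, and the counts do not test the difference between them, which is the comparison of days 12 and 6 above. Scaling by library size alone moved the day 12 split to 124 higher and 69 lower, and the day 6 split to 371 higher and 630 lower. Of the 47 replication genes, 1 was lower than day 0 on day 12 and 31 on day 6, with medians of -0.54 and -1.11. Of the 55 mitosis genes, none passed on day 12 and 11 were lower on day 6, with medians of -0.67 and -1.25. Interferon-stimulated genes had none past the threshold on day 12 and 8 higher on day 6, and class I genes had 3 and 8 higher. Redox genes had 1 higher and 1 lower on day 12, and 2 higher and 9 lower on day 6. Leaving out day 12 replicate 2 gave 144 calls for day 12, and leaving out another of its samples gave 75 to 112. For day 6, leaving out a day 6 sample or day 0 replicate 1 gave 450 to 520, and leaving out day 0 replicate 2 or 3 gave 605 and 584.

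Single genes placed day 12 at different distances from day 0. Ccl9 had 23.5, 15.5 and 23.9 CPM in untreated cells and was higher by 2.44 log2 on day 6 (edgeR adjusted p = 4.84e-05), while on day 12 the difference of 0.80 did not pass (0.233). C3 had 475, 451 and 421 CPM on day 0 and passed on both days, by 0.78 log2 on day 12 (edgeR adjusted p = 0.0236) and 1.66 on day 6 (5.93e-06). Il1b also passed on both, by 2.28 log2 on day 12 (edgeR adjusted p = 0.0387) and 3.12 on day 6 (0.0018). Mcm2 had 89.5, 65.9 and 54.2 CPM on day 0 and was lower on day 6 by -1.59 log2 (edgeR adjusted p = 0.000136), and its -0.55 on day 12 did not pass (0.263). Fcho1 was higher than day 0 on day 12, by 1.10 log2 (edgeR adjusted p = 0.00234), and differed by -0.30 on day 6 (0.46).

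**Figure D4:**
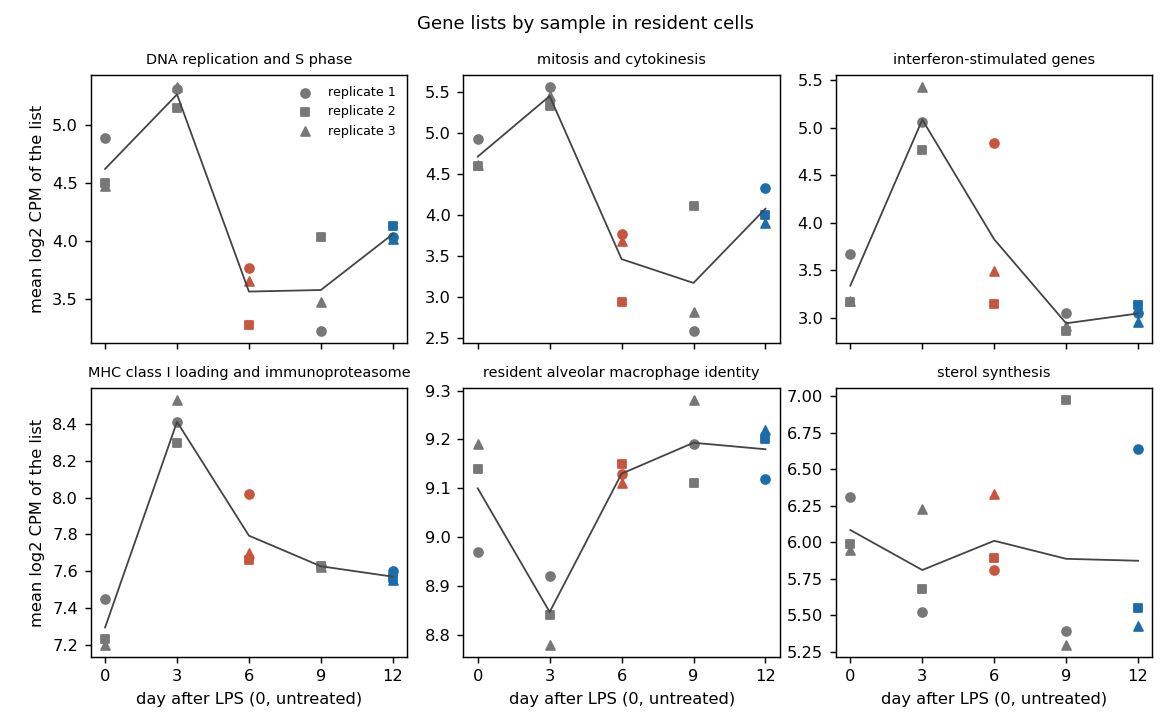
Mean log2 CPM of 6 gene lists in each resident sample by day after LPS (day 0 is untreated), with lines through the means of 3 samples and shapes for replicate numbers. The means of replication and mitosis genes are lowest on days 6 and 9, interferon-stimulated genes spread from 3.14 to 4.84 on day 6, and identity genes stay near 9 on all days.

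Whether resident cells changed differently from recruited cells between the same days was tested as an interaction. Of 13599 genes 4 passed (0.0294%), with 1 higher and 3 lower in the resident change minus the recruited change, 896 had an unadjusted p under 0.05 and DESeq2 called 50. With a block for each day and replicate number, which pairs resident and recruited samples, 58 passed, the 4 among them. Leaving out recruited day 12 replicate 1 gave 25 genes. Leaving out resident day 12 replicate 1, resident day 6 replicate 2 or recruited day 12 replicate 2 gave 5, 3 and 4, and any of the other 8 samples gave 2.

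Itgax showed the clearest difference. It had 2320, 2190 and 2310 CPM in resident cells of day 12 and 2090, 2160 and 2130 CPM in those of day 6. Recruited cells had 1260, 1320 and 1350 CPM on day 12, against 313, 289 and 305 CPM on day 6, and the interaction was -2.02 ± 0.29 log2 (SE, edgeR adjusted p = 0.0053). CD11c was a sort marker of both populations. Mak, a kinase best known from germ cells and cilia, had 43.7, 50.7 and 45.8 CPM in resident cells of day 12, against 37.3, 37.4 and 34.9 CPM on day 6. In recruited cells it had 10.2, 14.8 and 11.3 CPM on day 12, against 3.08, 2.51 and 3.12 CPM on day 6 (interaction -1.70 ± 0.25, edgeR adjusted p = 0.00622). Ephx1, an enzyme that opens epoxides of foreign compounds, had 22.7, 13.6 and 14.2 CPM in resident cells of day 12, against 33.4, 16.7 and 29.5 CPM on day 6, and 45.8, 35.9 and 35.2 CPM in recruited cells of day 12, against 9.53, 9.56 and 10.3 CPM on day 6 (interaction -2.64 ± 0.46, edgeR adjusted p = 0.0354). Pxylp1 was the gene with a higher resident change, with the counts given above beside 1.44, 2.58 and 2.26 CPM in recruited cells of day 12 and 2.49, 3.71 and 3.39 CPM in those of day 6 (edgeR adjusted p = 0.0354).

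**Figure D5:**
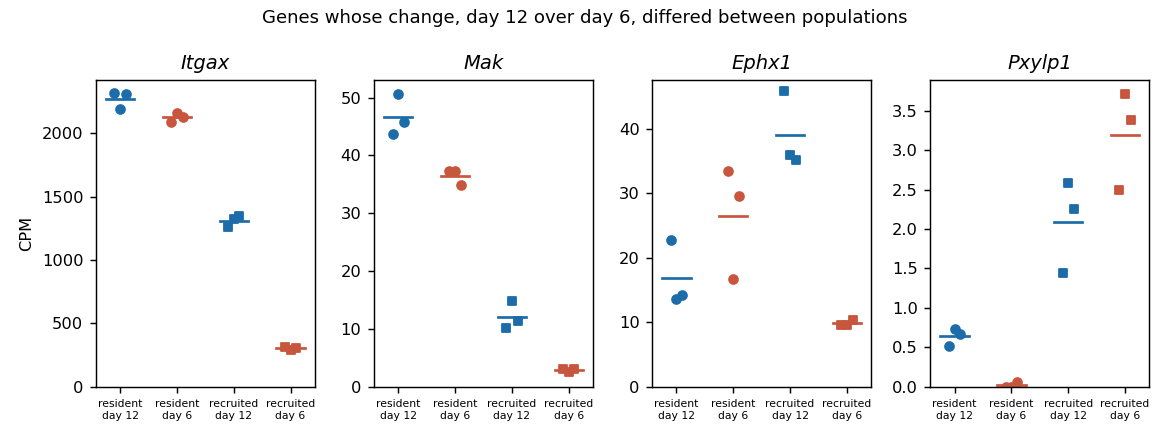
CPM of the 4 genes past the threshold for the interaction in each sample, resident cells (circles) and recruited cells (squares), day 12 to the left of day 6, with bars at means of 3 samples. Itgax stands at 2190 to 2320 CPM and 2090 to 2160 CPM in resident cells of the 2 days and at 1260 to 1350 CPM and 289 to 313 CPM in recruited cells.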

How the data were processed

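The deposited table holds raw read counts per gene, 1 column per sample, not normalized. Per the submitters' processing notes, the build was mm10, and the tools named were HTSeq 0.6.0, R 3.1.0, STAR 2.4.0a and, with no role given, DESeq2 1.4.5. No source used here states the strand option or annotation. A second deposited table of counts of unassigned reads stayed out of library sizes and tests, and reads outside genes were 7.06% to 11.8% in the 6 samples. Symbols matched 36345 of 38124 genes, and positions are of GENCODE on GRCm38.

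Genes were kept with filterByExpr (minimum count 10, total 15). The test was the robust quasi-likelihood test of edgeR 4.0.16 (R 4.3.3), two-sided, fitted to all 27 samples with a mean for each group (18 residual degrees of freedom) after TMM scaling, with a Benjamini-Hochberg threshold 0.05. DESeq2 1.42.0 was an alternative, with no adjusted p for 2110 genes. CPM use TMM factors, log2 CPM a prior count of 2. Counting intervals are 95% and cover counting error only. The script was tested on simulated data.

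The genes and 42 lists were chosen with earlier results of these data known. Some genes are not reported here. By rule, up to 4 called genes per list without overlap were named, then the 10 most raised and lowered called genes of at least 20 CPM, and 26 fixed genes. Others were named after their values were seen, mostly as the smallest p of their list.

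Equal replicate numbers did not pair days 12 and 6 (correlations of deviations from group means -0.013, 0.01 and -0.093 across genes). They did pair resident with recruited samples of 1 day (0.17 to 0.52 in all 12 pairs), a pairing that the labels do not state. Column numbers in the unassigned table, whose meaning no source states, were grouped by eye into 4 runs. Runs 3 and 4 each hold 1 day 12 and 1 day 6 resident sample, and runs 1 and 2 hold 1 of the 6 each. Differences within runs 3 and 4 are the values without replicate 1 of both days. Alternatives were other scalings, filters, sample sets, DESeq2, replicate blocks, the runs and leaving out each sample.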

Additional observations from a re-analysis of the deposited data

Results flagged for a closer look

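The change between days 12 and 6 differed between resident and recruited cells in 4 genes by edgeR's test of that difference, resident minus recruited on the log2 scale. It was -2.02 for Itgax (edgeR adjusted p = 0.0053) and -1.70 for Mak (0.00622). For Ephx1 it was -2.64 (edgeR adjusted p = 0.0354), and for Pxylp1 5 (0.0354), where the resident change rests on 30 counts on day 12 against 1 on day 6 and the fitted size depends on the prior count. Leaving out samples gave 2 to 25 such genes.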

How the results depend on the processing

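Counts of genes past the threshold differed between alternatives. For day 12 against day 6 the 6 genes were 92 with DESeq2, 31 with resident samples only, 34 with the 6 samples only, 117 with the number runs as a covariate, 3 with a replicate block in all samples or in the 6 samples only, and 1 without replicate 1 of both days, an alternative chosen after seeing the data. Leaving out 1 sample gave 0 to 6. For day 12 against day 0 the count of 177 was 398 with DESeq2, 508 with a replicate block in the groups compared, 379 with the runs, and 75 to 144 with 1 sample left out. For day 6 against day 0 the count of 873 was 1333 with resident samples only, 1446 with the groups compared, 1939 with a replicate block there, 1586 with the runs, and 450 to 605 with 1 sample left out. For the interaction the 4 were 50 with DESeq2, 8 with the groups compared, 15 with a replicate block there, 58 with the runs, 58 with a block per day, also chosen after seeing the data, and 2 to 25 with 1 sample left out. The cause of these differences was not tested. Scalings and filters kept each count within 1.5 times.

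Of 1258 values of 75 named genes under 17 alternatives, 28 reversed in sign, in 13 genes, none of them past the threshold. Arg1 was -0.37 with a replicate block in the 6 samples, -1.72 with the runs and -2.27 without replicate 1 of both days, Pparg 0.15 with the runs, and Spp1 -0.54 with the runs and -0.37 without both. Without both, H2-Aa was -0.10 and Ifit3 0.40, while Car4 at -1.05 and Hmgcs1 at -0.85 kept their sign and moved farther from 0. With 1 sample left out, log2 values ranged from -1.04 to 0.17 for Apoe, -2.09 to 1.10 for Arg1, -0.98 to 0.004 for Car4, -1.71 to 0.45 for Ccl2, -0.0047 to 0.31 for Cidec, -0.21 to 0.30 for H2-Aa, -0.76 to 0.21 for Hmgcs1, -1.24 to 0.21 for Ifit3, -1.22 to 0.071 for Isg15, -0.19 to 0.14 for Pparg, -0.029 to 0.16 for Siglecf, -0.28 to 2.09 for Spp1 and -0.29 to 0.50 for Tnf. List medians with 1 sample left out ranged from 0.30 to 0.55 for replication, 0.34 to 0.77 for mitosis and -1.23 to -0.21 for interferon-stimulated genes, and with the runs they were 0.42, 0.27 and -0.85. Genes under 1 CPM rest on few counts at these depths.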

Other observations

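Groups of genes not described above gave small or mixed differences, day 12 minus day 6, with none past edgeR's adjusted threshold. Of 40 lysosome and proton pump genes 8 were higher and none lower without overlap of the samples (10.8% and 9.41% of all genes), with a median log2 difference of 0.11, and 1 had an unadjusted p under 0.05. Without day 12 replicate 1, 9 were higher and 17 lower (beside 19.7% and 17.5% of all genes), and the median was -0.051. Epcam, an epithelial adhesion gene, had 35.5, 46.4 and 49.9 CPM on day 12, against 23.8, 19.1 and 30.4 CPM on day 6 (0.85 ± 0.42 log2, SE, edgeR adjusted p = 0.633). Of 37 scavenger and pattern recognition receptors 2 were higher and 8 lower without overlap (5.41% and 21.6%, beside 10.8% and 9.41% of all genes), with a median of -0.11. With day 12 replicate 1 left out 4 were higher and 17 lower (10.8% and 45.9%, beside 19.7% and 17.5% of all genes). Of 32 repair and matrix genes 4 were higher and none lower (12.5% and 0%, beside 10.8% and 9.41% of all genes), with a median of 0.048. With day 12 replicate 1 left out 7 were higher and 11 lower (21.9% and 34.4%, beside 19.7% and 17.5% of all genes), with a median of -0.40.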
